A study of Mus musculus with 16 samples.

Results

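The genes described here are 9 genes that mark serotonin neurons or handle serotonin: Tph2, Slc6a4, Fev, Ddc, Slc18a2, Lmx1b, Gch1, Maob and Slc22a3. They were chosen by name, and each was matched by its Ensembl identifier to 1 of the 38924 gene rows of the count tables. All 9 passed the filter on low counts, as did 18350 genes in all. Expression was measured by mRNA sequencing of 16 mouse libraries made from brain punches. The labels place these in the ventral posterolateral nuclei of the thalamus, through which touch and pain signals reach the cortex. The 4 groups were wild-type (WT) naive, naive labelled RGS4 KO, WT treated with CFA, and CFA-treated labelled RGS4 KO, with 4 libraries each (numbered 1 to 4, 5 to 8, 9 to 12 and 13 to 16). Each library pooled punches from 2 mice. CFA is not spelled out in the labels. The labels give the sex as female and the protocol names male mice, and no age or strain is given. The series text describes a floxed Rgs4 gene and a viral vector that carries Cre into this nucleus, whereas the sample labels give only the genotype, so which cells the vector reached, and whether WT mice received one, is not stated.

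Rgs4, the targeted gene, did not set the groups apart. It was at 80.9 ± 3.66 CPM (read counts scaled to a common library total, the standard edgeR unit) in WT naive and 81.3 ± 2.74 in naive libraries labelled KO (SD, n = 4 each). After CFA the WT libraries averaged 89.3 ± 6.66 CPM and those labelled KO 84.1 ± 5.5 CPM. The word "labelled" is therefore kept throughout. Library totals ran from 18.1 to 78.8 M counts, and the level of Tph2 did not follow the total (Pearson r = -0.044, permutation p = 0.87; Spearman rho = -0.024, permutation p = 0.936; n = 16; r = -0.024 without the 2 libraries farthest from the median total). Of the thalamic relay markers, Slc17a6, the vesicular glutamate transporter, was at 432 to 535 CPM and Tcf7l2, a thalamic transcription factor, at 109.5 to 179 CPM in all libraries; both genes are also made outside this nucleus. Whether the punches held tissue next to the labelled nucleus was not tested, and the levels of markers of such tissue are given beside the results. Gbx2, another thalamic transcription factor, had 54 counts over the 16 libraries and was not tested.

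Serotonin neurons of the forebrain-projecting groups have their cell bodies in the raphe nuclei of the brainstem, and their axons reach the thalamus. They hydroxylate tryptophan with tryptophan hydroxylase, which needs tetrahydrobiopterin as a cofactor, and decarboxylate the product to serotonin. A vesicular transporter loads the transmitter, the plasma membrane transporter takes it back, and monoamine oxidase breaks it down. The messenger RNAs of these genes are made in the cell bodies, and in a bulk library fewer cells of a type and less RNA per cell cannot be told apart.

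The promoters of 3 genes are shown because these encode the enzyme, the transporter and the transcription factor by which serotonin neurons are commonly recognised. Each run is RefSeq sequence of build GRCm38.p6 upstream of the start site, 5′ to 3′ on the gene's strand, without bases inside the annotated gene. Capitals mark matches to 3 short motifs on either strand. The first is GGAA, the core bound by ETS factors such as the Fev product. The second is TAATTA, bound by many homeodomain factors. The last is GATAAG, bound by GATA factors. A longer ETS form, GGAAGT, which contains the core, was searched as well.
Tph2 (chr10:115185023-115185272, minus strand): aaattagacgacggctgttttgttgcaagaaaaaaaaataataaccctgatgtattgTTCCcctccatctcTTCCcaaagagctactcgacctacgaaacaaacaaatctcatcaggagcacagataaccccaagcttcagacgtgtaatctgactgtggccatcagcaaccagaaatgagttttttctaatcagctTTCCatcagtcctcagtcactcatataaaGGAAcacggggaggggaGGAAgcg
Slc6a4 (chr11:76998347-76998596, plus strand): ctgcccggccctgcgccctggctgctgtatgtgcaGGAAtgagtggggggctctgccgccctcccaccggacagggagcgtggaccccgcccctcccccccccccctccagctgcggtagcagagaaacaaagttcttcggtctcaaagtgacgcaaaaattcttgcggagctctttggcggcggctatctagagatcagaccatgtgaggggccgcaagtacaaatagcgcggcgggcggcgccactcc
Fev (chr1:74885420-74885658, minus strand): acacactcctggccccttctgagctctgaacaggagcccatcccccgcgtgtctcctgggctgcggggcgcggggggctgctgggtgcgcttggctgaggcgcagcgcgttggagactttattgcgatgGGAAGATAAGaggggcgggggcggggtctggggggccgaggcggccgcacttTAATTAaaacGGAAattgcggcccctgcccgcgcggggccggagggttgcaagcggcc

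The core was found 5 times in the 250 bases of Tph2, 1 time in Slc6a4 and 2 times in the 239 bases of Fev. That core is common: 93.4% of 32851 RefSeq windows of 250 bases hold it on either strand. The Fev run also holds 1 TAATTA, present in 4.84% of all windows, and 1 GATAAG, present in 6.55%. In the Fev run this GATAAG directly follows a GGAA, without overlap. The longer form GGAAGT, held by 19.7% of all windows, was found in the window of Lmx1b and in none of the other windows searched, which cover 8 of the 9 genes (Maob has no entry in the table). A match describes letters only, and the files hold no measure of factor binding.

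Tph2, the brain tryptophan hydroxylase and the rate-limiting enzyme of serotonin synthesis, had the highest level of the 9. Per length it averaged 113 ± 54.2 CPM per kilobase of exon (SD over 16 libraries), rank 249 of 18121 genes. In mm10 its gene, ENSMUSG00000006764.8, spans 115078641 to 115185022 of chromosome 10 (minus strand). The 4 WT naive libraries had 545, 646, 436 and 283 CPM. The naive libraries labelled KO had 132, 280, 438 and 101 CPM. The WT CFA libraries had 340.1, 58.9, 272 and 254 CPM. The CFA libraries labelled KO had 399, 304, 293 and 431 CPM. Library 2 was the highest and library 10 the lowest, 11-fold apart, and every group overlapped every other. Library 10 held 3067 Tph2 counts and library 8, with the fewest, 2887, so counting error is small beside this range.

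Slc6a4, the plasma membrane serotonin transporter (ENSMUSG00000020838.6, plus strand of chromosome 11, 76998603 to 77032340), followed the same order almost exactly. It was at 429, 514, 343 and 219 CPM in WT naive libraries and at 98.6, 218, 332 and 79.8 CPM in naive libraries labelled KO. With CFA the WT libraries had 266, 42.1, 202 and 212 CPM and those labelled KO had 294, 230, 222 and 336 CPM. The range was 12.2-fold, again from library 10 to library 2, and the groups overlapped. Per length Slc6a4 averaged 55.7 ± 27.3 CPM per kilobase.

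Fev, also called Pet1, is the ETS transcription factor that maintains the serotonin neuron program (ENSMUSG00000055197.4, minus strand of chromosome 1, 74881509 to 74885419). Its levels were 16.6, 20.5, 13.1 and 10.5 CPM in WT naive libraries and 4.09, 8.65, 14.7 and 3.94 CPM in naive libraries labelled KO. With CFA the WT libraries had 10.3, 1.88, 8.14 and 9.78 CPM and those labelled KO had 12.7, 9.18, 8.68 and 13.1 CPM. All 4 WT naive libraries lay above all 4 WT CFA libraries, by a margin of 10.5 against 10.3 CPM, and the other group pairs compared overlapped. The share of all tested genes whose libraries separate in this way was not computed. Lmx1b, the LIM homeodomain factor needed for these neurons to form and also used by midbrain dopamine neurons, ranged from 3.86 to 23.2 CPM. Per length the 2 factors were low, at 6.41 ± 2.97 (Fev) and 2.55 ± 1.01 (Lmx1b) CPM per kilobase, and their lowest raw counts in a library were 98 and 143.

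The enzymes and transporters that serotonin neurons share with other monoamine cells came next. Ddc, the aromatic amino acid decarboxylase of the second synthesis step, ranged from 43.7 to 279.9 CPM. Slc18a2, the vesicular monoamine transporter, ranged from 40.5 to 342 CPM. Per length both were close, at 33.3 ± 13.4 (Ddc) and 33.9 ± 15.1 (Slc18a2) CPM per kilobase. Gch1, which makes the first intermediate of tetrahydrobiopterin, ranged from 5.74 to 39.4 CPM (3.44 ± 1.43 per kilobase). All 3 had their highest value in library 2 and their lowest in library 10.

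Maob and Slc22a3 stood apart from the other 7 in how widely they varied or how closely they followed. Maob, the X-linked monoamine oxidase of serotonin and histamine neurons and of astrocytes, was at 111, 137, 101 and 80.4 CPM in WT naive libraries and at 63.1, 71.2, 94.3 and 47.9 CPM in naive libraries labelled KO. With CFA the WT libraries had 91.4, 49.4, 72.9 and 78.3 CPM and those labelled KO had 89.8, 77, 82.6 and 95.7 CPM. Its range was 2.86-fold, the narrowest of the 9, and its lowest library was 8 rather than 10. Slc22a3, a low-affinity organic cation transporter that also carries monoamines, had the lowest level per length, 1.84 ± 0.762 CPM per kilobase. It was at 6.42, 2.73, 6.07 and 7.18 CPM in WT CFA libraries and at 9.23, 8.81, 7.38 and 13.3 CPM in CFA libraries labelled KO, which did not overlap. Here too, the share of all genes without overlap was not computed. Slc22a3 shares 420 exon bases on the opposite strand with Plg, the plasminogen gene, which the kit cannot separate by strand; Plg had 105 counts over the 16 libraries.

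**Figure D1:**
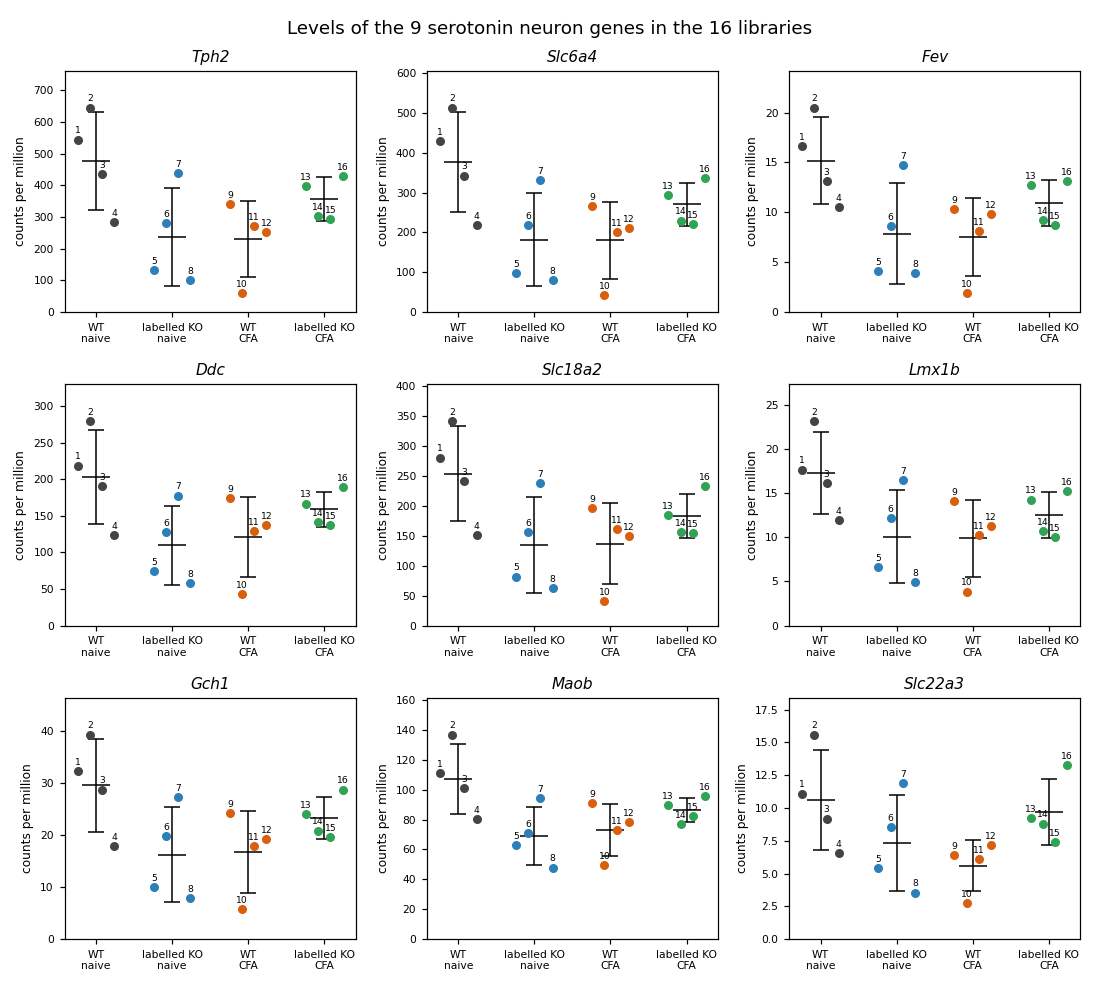
Each panel plots 1 gene, with its level in CPM on an axis from 0 and the 4 groups side by side. Points are libraries with their numbers, and the black bars are the group mean and SD (n = 4). Library 2 is at the top of every panel, and library 10 at the bottom of every panel but that of Maob, where library 8 is lowest.

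These spreads were wide for this data set. On the log2 scale the SD of Tph2 over the 16 libraries was 0.91, and 44 of 15030 genes that averaged 1 CPM or more (0.293%) had a larger one. For the other members that share ran from 0.273% (Slc6a4) to 2.38% (Maob). Differences between the 4 group means held 32.4% to 44.7% of the variance of each gene's log2 level, and the rest lay between libraries of the same group. Means of 4 libraries hold part of the variance by chance alone, and the share over all genes was not computed.

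The 9 genes rose and fell together from library to library. Over 16 libraries the 36 pairs had Pearson r of 0.907 to 0.999 and Spearman rho of 0.835 to 0.988 on log2 CPM. The permutation p was 1e-05 for Pearson's r in all 36 pairs, the smallest that 100000 permutations can give (1e-05 after adjustment over the 36 pairs). For Spearman's rho it was at most 0.00016. The closest pair was Tph2 with Slc6a4 (r = 0.999, rho = 0.988). Among the 21 pairs without Maob and Slc22a3, r was 0.98 or more. The 8 pairs with Maob had r of 0.907 to 0.966 and the 8 with Slc22a3 had r of 0.907 to 0.944.

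The co-variation was as close within groups, where r of the deviations from the group means was 0.912 to 0.998. Without the 2 libraries farthest from the median, which were 8 and 10 in 35 of the 36 pairs, r was 0.827 to 0.997, and the lower end belonged to Ddc with Slc22a3. For Tph2 with Slc6a4 it was then 0.997. Libraries 5, 8 and 10, at 132, 101 and 58.9 CPM of Tph2, lay below a gap, with the other 13 at 254 CPM or more. Over those 13 libraries, left after the data had been seen, r was 0.76 to 0.994 and all 36 pairs passed the test after adjustment. All genes of a library share its scaling and its dissection.

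The levels were then read against Tph2, which is made almost only by serotonin neurons in the brain. For every 100 Tph2 reads there were 77 ± 2.88 Slc6a4 reads (SD, n = 16; 71.4 to 83.5), a coefficient of variation of 3.74% while Tph2 itself ranged 11-fold. In the library with least Tph2 the ratio was 71.4, and in that with most it was 79.5. Fev stood at 3.23 ± 0.316 and Slc18a2 at 56.2 ± 5.33 reads per 100 Tph2 reads, with coefficients of variation of 9.78% and 9.49%. These 3 genes varied least against Tph2 of the 8.

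The remaining genes, and to a lesser degree Slc18a2, fell less than Tph2 did towards the low libraries. A straight line of CPM against Tph2 CPM met the axis at 38.4 ± 2.92 CPM (SE) for Maob when Tph2 was taken to 0, or 45.8% of the mean Maob level. For Ddc it met the axis at 25 ± 5.8 CPM (16.8% of its mean), for Gch1 at 3.02 ± 0.701 (14%), for Lmx1b at 2.31 ± 0.557 (18.5%) and for Slc22a3 at 1.68 ± 0.81 (20.2%). For Slc6a4 it met the axis at -5.09 ± 4.72 CPM, for Fev at 0.454 ± 0.463 and for Slc18a2 at 13.8 ± 6.34 (7.8% of its mean). On log scales the slope against Tph2 was 1.02 for Slc6a4, 0.94 for Fev, 0.88 for Slc18a2, 0.82 for Gch1, 0.76 for Ddc, 0.73 for Lmx1b, 0.68 for Slc22a3 and 0.41 for Maob. The ratio of Maob to Tph2 therefore moved most, from 20.4 Maob reads per 100 Tph2 reads in library 1 to 83.9 in library 10. These lines extend below the lowest library and describe these 16 libraries only.

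**Figure D2:**
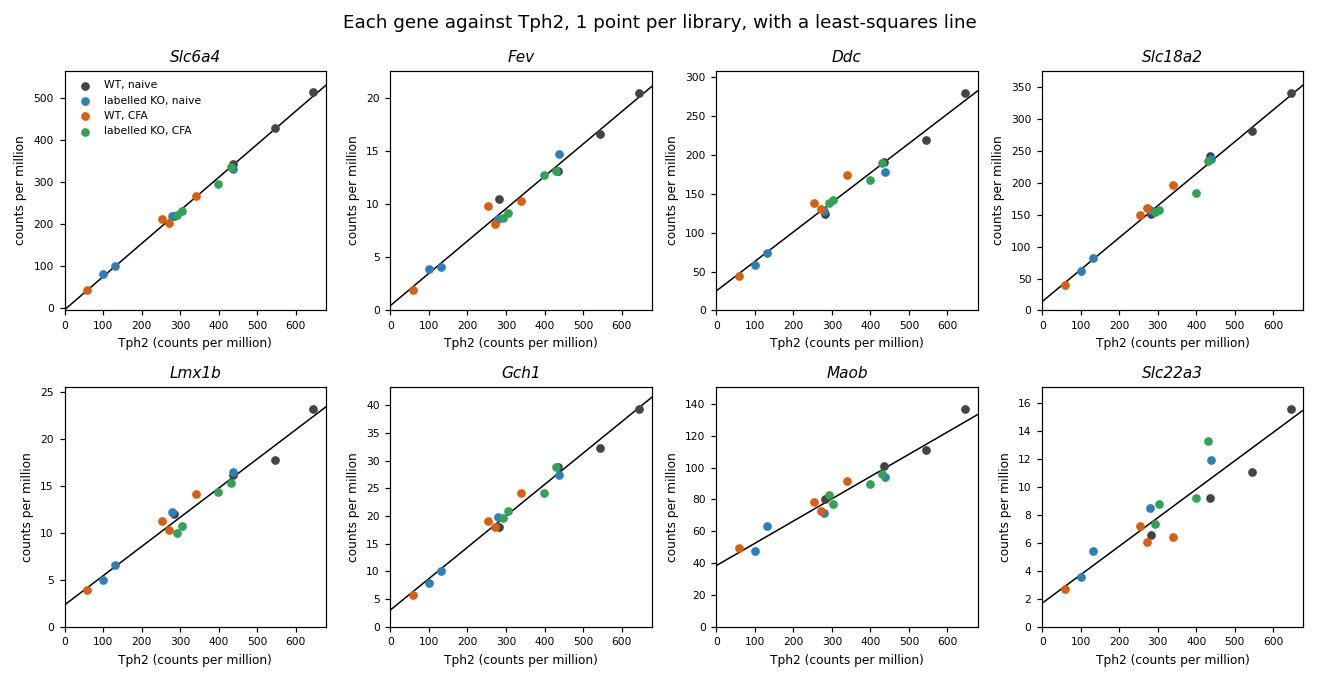
Each panel plots the level of 1 gene (vertical axis, CPM) against that of Tph2 (horizontal axis, CPM), with 1 point per library coloured by group and a least-squares line. Slc6a4 runs to the origin, whereas the line of Maob meets the vertical axis at 38.4 CPM, and libraries of all groups lie along the same lines.

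The group comparisons asked whether the serotonin genes differed with the KO label, with CFA, or with the 2 together. Between naive libraries, all 9 had a lower mean in libraries labelled KO, with a median log2 difference of -0.94. Mean Tph2 was 477 ± 156 CPM for WT and 238 ± 155 CPM with the KO label (SD, n = 4 each). The fold was 0.493, with a 95% interval of 0.221 to 1.1 (edgeR adjusted p = 0.426). None of the 9 genes was called by edgeR at an adjusted p under 0.05 (0 of 9; 1.45% of all 18350 genes were), and DESeq2 called 0 of 9. At an unadjusted edgeR p under 0.05 there was 1 gene, Maob (fold 0.637, interval 0.452 to 0.896, adjusted p = 0.212), against 13.8% of all genes by edgeR. By DESeq2 there were 4 (Tph2, Slc6a4, Ddc and Maob). The share of all genes at an unadjusted DESeq2 p under 0.05 was not computed, here or in the comparisons that follow. The folds of the 7 genes other than Tph2 and Maob lay between 0.478 (Slc6a4) and 0.663 (Slc22a3). Some markers of other cells had folds above 1. The thalamic genes Cbln1 (fold 1.38, adjusted p = 0.0322) and Ntng1 (fold 1.13, adjusted p = 0.0359) were called higher with the KO label. They were 2 of 11 thalamic genes tested, and the list as a whole hardly moved (median log2 difference 0.06, 7 of 11 above 0). Prkcd, of the same list, had a fold of 0.861 (adjusted p = 0.302). The oculomotor and Edinger-Westphal markers, of a midbrain cell group, had 0 of 7 called, with a fold of 3.19 for Cartpt (adjusted p = 0.226) and a summed level of 43.2 to 70.9 CPM in WT and 43.3 to 301 CPM with the KO label. The part of these markers in the serotonin gene levels was not tested, here and in the comparisons that follow.

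Between CFA-treated libraries the sign was the opposite, with all 9 means higher in libraries labelled KO and a median log2 difference of 0.49. Mean Tph2 was 231 ± 121 CPM for WT and 357 ± 68.6 CPM with the KO label. The fold was 1.55, with an interval of 0.701 to 3.41 (edgeR adjusted p = 0.712). Slc22a3 had the largest fold, 1.75 (interval 0.984 to 3.1, adjusted p = 0.425). EdgeR called 0 of 9 genes (1.6% of all genes), DESeq2 called 0, and 0 had an unadjusted edgeR p under 0.05 (12.3% of all genes; by DESeq2, 1). Cbln1 was called lower with the KO label (fold 0.734, adjusted p = 0.0282). It was the 1 gene called of 11 thalamic genes tested, of which 7 had folds above 1 (median log2 difference 0.02). The midbrain markers had 0 of 7 called, with a fold of 0.371 for Cartpt (adjusted p = 0.31) and a summed level of 289.5 to 435 CPM in WT and 81.5 to 221 CPM with the KO label. Sim1, a hypothalamic transcription factor, was called lower (fold 0.611, adjusted p = 0.00398). It was the 1 gene called of 5 histamine and hypothalamic genes tested, of which 2 had folds above 1 (median log2 difference -0.09).

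CFA against naive in WT gave lower means for all 9, with a median log2 difference of -0.89. Tph2 had a fold of 0.484 (interval 0.219 to 1.07, adjusted p = 0.333) and Fev a fold of 0.491 (interval 0.242 to 0.995, adjusted p = 0.281). EdgeR called 0 of 9 (2.23% of all genes) and DESeq2 0. Fev, Maob (fold 0.679) and Slc22a3 (fold 0.524) had an unadjusted edgeR p under 0.05, 3 of 9 against 17.6% of all genes by edgeR. By DESeq2 5 of 9 did, without a DESeq2 share of all genes to set beside that count. Of the 7 midbrain markers tested, 3 were called higher after CFA in WT, namely Cartpt (fold 8.21, adjusted p = 0.024), Ucn (fold 9.18, adjusted p = 0.0434) and Calcb (fold 4.87, adjusted p = 0.01). The summed level of that list was 43.2 to 70.9 CPM in WT naive libraries and 289.5 to 435 CPM in WT CFA libraries. The thalamic genes Cbln1 (fold 1.49, adjusted p = 0.00737) and Ntng1 (fold 1.15, adjusted p = 0.0105) were also called higher there. They were 2 of 11 tested, of which 6 had folds above 1 (median log2 difference 0.07). Sim1 was called higher as well (fold 1.79, adjusted p = 0.00222), as the 1 gene called of 5 histamine and hypothalamic genes tested. Of those 5, 2 had folds above 1 (median log2 difference -0.04), and Pomc had a fold of 0.452 (adjusted p = 0.0563).

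CFA against naive in libraries labelled KO gave higher means for all 9, with a median log2 difference of 0.56. Tph2 had a fold of 1.52 (interval 0.684 to 3.37, adjusted p = 0.846). EdgeR called 0 of 9 (0.185% of all genes), DESeq2 called 0, and 0 had an unadjusted p under 0.05 by either tool (7.81% of all genes by edgeR). These 4 comparisons use each group in 2 of them, so their signs are not independent of each other.

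The interaction, the CFA difference in libraries labelled KO minus that in WT, was above 0 for all 9, with a median of 1.4 on the log2 scale. For Tph2 it was 1.65 (SE 0.75, unadjusted p = 0.0469, adjusted p = 0.498) and for Maob 0.9 (SE 0.32, adjusted p = 0.382). EdgeR called 0 of 9 (0.0654% of all genes) and DESeq2 called 0, while 7 of 9 had an unadjusted edgeR p under 0.05, against 9.86% of all genes by edgeR. By DESeq2 7 did as well (share of all genes not computed). Cbln1 was called with the opposite sign (log2 -0.92, adjusted p = 0.0217). It was the 1 gene called of 11 thalamic genes tested, of which 5 lay above 0 (median -0.04). Of the 7 midbrain markers tested, 0 lay above 0 (median -2.16), with -3.1 for Cartpt (edgeR adjusted p = 0.228). EdgeR called 0 of these midbrain markers, and 4 had an unadjusted edgeR p under 0.05. DESeq2 called 2 of them, and 89 genes in all. Since the 9 serotonin genes vary together over libraries, the 7 of them at an unadjusted p under 0.05 are close to repeats of 1 measurement. The intervals are wide: the fold of folds for Tph2 was 3.14, with a 95% interval of 1.02 to 9.66.

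Once the Tph2 level of each library entered the model as a covariate, a fit chosen after the data had been seen, the intervals narrowed. Slc6a4 then had folds of 0.999 (interval 0.939 to 1.06) for the KO label in naive libraries, 0.969 (0.917 to 1.03) for the KO label after CFA, 1 (0.942 to 1.06) for CFA in WT and 0.971 (0.917 to 1.03) for CFA in libraries labelled KO. In these 4 comparisons the intervals for Slc6a4 beyond the Tph2 difference thus stayed within 0.917 to 1.06. Of the 8 genes, 0 were called for the KO label in naive libraries (0.599% of all genes in that fit), 0 for CFA in WT (1.12%), 0 for CFA in libraries labelled KO (0.114%) and 0 for the interaction (0.0654%) by edgeR, and DESeq2 with the same covariate also called 0 in each. At an unadjusted edgeR p under 0.05 the first of these contrasts held 1 gene, Maob (fold 0.869; 9.47% of all genes), and the second 0 (12.2%). The third held 1, Slc18a2 (fold 0.919; 7.42%), and so did the interaction (fold 0.87; 5.9%).

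Slc18a2 was the 1 gene of 8 called, for the KO label after CFA (1.63% of all genes in that fit). Relative to Tph2 it was lower in libraries labelled KO, with a fold of 0.885 (interval 0.832 to 0.941, edgeR adjusted p = 0.037). Per 100 Tph2 reads there were 58, 68.8, 59.2 and 59.1 Slc18a2 reads in WT CFA libraries and 46.2, 51.5, 53 and 54.3 in CFA libraries labelled KO, which do not overlap. How many genes separate in this way was not counted. Ddc (fold 0.914, adjusted p = 0.277) and Lmx1b (fold 0.888, adjusted p = 0.349) lay on the same side without being called, which makes 3 of 8 genes at an unadjusted p under 0.05 (11.5% of all genes). Dopamine neurons also use Slc18a2, Ddc and Lmx1b, and the dopamine transporter gene Slc6a3 was at 9.01, 5.34, 7.73 and 7.16 CPM in WT CFA libraries and 5.59, 5.85, 4.12 and 6.45 CPM in CFA libraries labelled KO. Of the 10 dopamine genes tested, 0 had folds above 1 for the KO label after CFA (median log2 difference -0.29). EdgeR called 0 of them (1.6% of all genes). With Slc6a3 as a further covariate the log2 difference of Slc18a2 was -0.16 in place of -0.18. The unadjusted edgeR p was 0.0258 in place of 0.000496, and the gene was no longer called (adjusted p = 0.592). Whether dopamine neurons had a part in the Slc18a2 difference was not tested. The call was also lost in 8 of the 16 fits that each left out 1 library, namely 4, 7, 9, 11, 12, 13, 14 and 15 (adjusted p = 0.0504 to 0.132). Slc18a2 shares 111 exon bases with the antisense gene Gm29261.

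**Figure D3:**
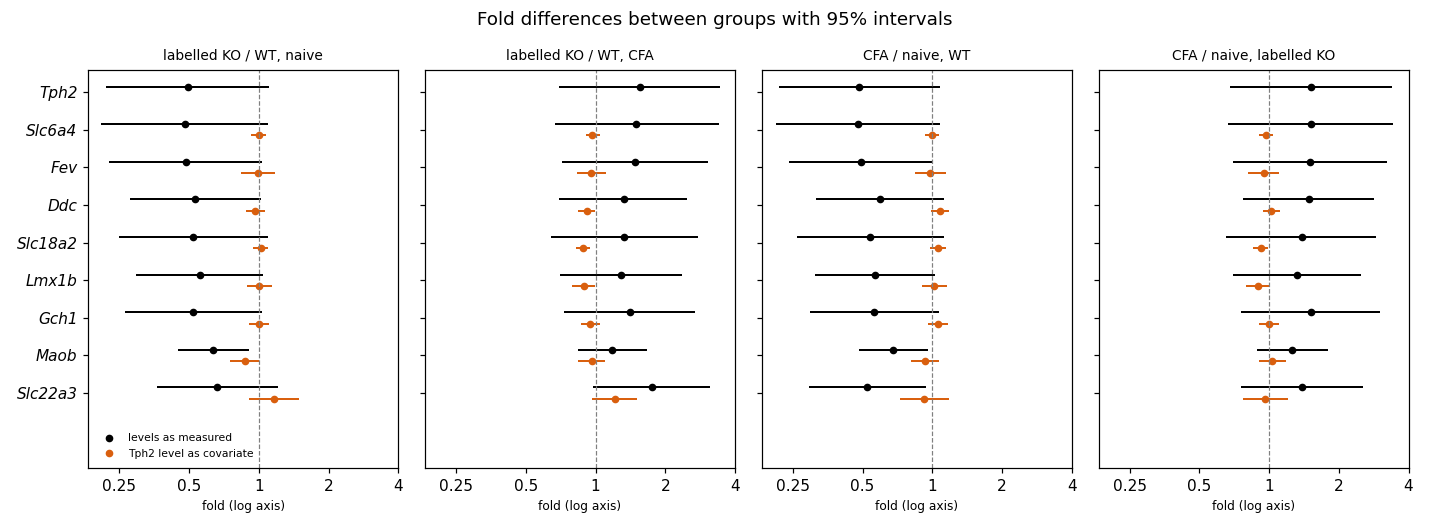
Folds of each gene (rows) in the 4 group comparisons (panels), on a log axis, with 95% intervals. Black points are the levels as measured, and orange points the fit with the Tph2 level as a covariate, in which Tph2 itself has no value. Black intervals cross 1 except those of Maob in naive libraries and of Fev, Maob and Slc22a3 for CFA in WT, and orange intervals are narrower throughout.

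Other genes of serotonin neurons followed only in part. Of 17 further markers, all tested, 7 had r of at least 0.8 with Tph2 over the 16 libraries, against 0.91% of all tested genes, and the median was 0.66 (all genes -0.01). These were En1 (0.96) and En2 (0.87), homeodomain factors of the midbrain and anterior hindbrain, the GATA factor Gata2 (0.88), the serotonin autoreceptor Htr1a (0.93), the receptor Htr5b (0.86), the vesicular glutamate transporter Slc17a8 (0.91) and the RNA-binding protein Celf6 (0.87). Gata3 had 0.74, the developmental factor Foxa2 had 0.27, and Nkx2-2 had -0.05. These r describe libraries that share scaling and dissection, and carry no test. Of the 17, 0 were called in each of the 5 contrasts by edgeR, with 5, 2, 4, 1 and 3 genes at an unadjusted p under 0.05 in the order given above (over all genes 13.8%, 12.3%, 17.6%, 7.81% and 9.86%). DESeq2 called 2 in the first contrast, the KO label in naive libraries, where it called 456 genes in all, and 0 in the others.

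Slc17a8, whose product lets a subset of serotonin neurons release glutamate, had a range of 3.92 to 46.2 CPM, and its ratio to Tph2 was the lowest in library 7 (2.81 reads per 100 Tph2 reads) and the highest in library 15 (7.57). Of the 17 markers it had the fold farthest from 1 for the KO label in naive libraries, 0.294 (interval 0.127 to 0.682, edgeR adjusted p = 0.169). Its interaction, 2.53 on the log2 scale (edgeR adjusted p = 0.299), was also the largest of the 17. Htr1a kept a large level of its own: its line met the axis at 28.2 ± 1.21 CPM, or 70.7% of its mean, with a slope of 0.22 on log scales. Htr1a is also made by neurons that receive serotonin.

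In the cofactor and monoamine enzyme list, 13 of 14 genes were tested and 1 had r of at least 0.8. It was Gchfr, the feedback regulator of the Gch1 enzyme (r = 0.98), at 2.71 to 20 CPM. The remaining steps of tetrahydrobiopterin supply did not follow: r was 0.31 for Pts, -0.04 for Spr and -0.48 for Qdpr, the last at 263 to 366 CPM in all libraries. Maoa, the other monoamine oxidase, had r = 0.6 and a narrow range of 70.4 to 87.5 CPM. It was the only gene of this list called, lower after CFA in WT (fold 0.889, interval 0.84 to 0.941, edgeR adjusted p = 0.0274). Tph1, the peripheral and pineal hydroxylase, was at 0.0544 to 0.547 CPM. Of 6 other monoamine transporters 4 were tested, Slc29a4 being the highest (34.9 to 43.1 CPM, r = -0.17). In the transporter and dopamine lists (4 and 10 genes tested) edgeR called 0 genes in each of the 5 contrasts (0.0654% to 2.23% of all genes). At an unadjusted edgeR p under 0.05 there were 0 to 2 genes per list and contrast (7.81% to 17.6% of all genes). DESeq2 called up to 2 of the 4 transporters (CFA in WT, 756 genes in all). It called 1 of the 10 dopamine genes for the KO label after CFA, 1 for CFA in WT and 1 for the interaction (453, 756 and 89 genes in all).

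The 6 genes most like Tph2 in pattern were members of the set, and most of those that came after were not. Of 16360 genes averaging 0.5 CPM or more, 54 had r of at least 0.9 with Tph2 and 0 had r of -0.9 or less. Slc6a4, Slc18a2, Gch1, Ddc, Fev and Lmx1b held ranks 1 to 6, Maob rank 15 and Slc22a3 rank 21. Outside the members, the first 10 were C130021I20Rik (0.979), Gchfr (0.978), Irs4 (0.967), Rasgrp1 (0.965), Vwa5b1 (0.96), Slc10a4 (0.959), Cntnap3 (0.956), En1 (0.955), Tmem114 (0.947) and Necab2 (0.947). C130021I20Rik is annotated as an antisense gene on the plus strand of chromosome 2 (33641193 to 33646354), 681 bases from Lmx1b, which lies on the minus strand at 33560965 to 33640511. It was at 8.06 to 37.5 CPM, and Slc10a4, a transporter of monoamine and cholinergic vesicles, at 6.62 to 40.1 CPM. Rasgrp1 (17.3 to 32.2 CPM) and Necab2 (25.4 to 56.1 CPM) followed Tph2 over a narrow range, with log-scale slopes of 0.26 and 0.31.

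Markers of neighbouring cells moved with Tph2 to different degrees. For 11 tested thalamic relay genes the median r was -0.38, with -0.79 for both Tcf7l2 and Ntng1. On the other side, r was 0.55 for Cbln4, 0.27 for Prkcd and 0.17 for Calb2. The summed level of the thalamic list was 1038 to 1091 CPM in WT naive libraries and 1069 to 1188 in naive libraries labelled KO. It was 1049 to 1157 in WT CFA and 1036 to 1190 in CFA libraries labelled KO. The 8 ependymal and choroid genes had a median r of 0.62, led by Ccdc153 (0.79), and a summed level of 96 to 101, 79 to 103, 72.1 to 103 and 81.6 to 96.5 CPM in the same order. The 10 dopamine neuron genes had a median r of 0.54, from -0.5 (Aldh1a1) and -0.39 (Nr4a2) to 0.78 (Pitx3). Th had r = 0.65 and a level of 19 to 38.4 CPM. The summed level of the dopamine list was 230.4 to 278, 240.3 to 309, 268 to 336 and 220.2 to 287 CPM. Aldh1a1 (124 CPM on average) and Ret (78.4 CPM) had the highest levels in that sum. Of the 6 habenula genes, 1 had r of at least 0.8, Nwd2 (0.91, 17.8 to 31.6 CPM), and the median was 0.3. Their summed level was 56.3 to 62.6, 45.3 to 59.2, 47.2 to 53.4 and 51.6 to 57.2 CPM, and edgeR called 0 of 6 in each of the 5 contrasts, with 0 to 2 at an unadjusted p under 0.05; DESeq2 called 1, for the KO label in naive libraries. For the 5 tested histamine and hypothalamic genes the median r was 0.25, with 0.73 for Hdc, the histamine-making enzyme, and -0.25 for Sim1. Their summed level was 15.8 to 22.3, 13.6 to 18.4, 14.6 to 18.9 and 13.8 to 15.4 CPM, and Sim1 was the 1 gene of 5 that edgeR called. The 7 midbrain markers had a median r of 0.16. The 10 astrocyte genes had a median r of -0.13 and the 8 endothelial and mural genes one of -0.31.

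Noradrenaline neurons, which share Slc18a2, Ddc and Gch1, left few reads in most libraries. Dbh, the noradrenaline-making enzyme, had 0 counts in libraries 1 and 8, which allows up to 0.0819 and 0.103 CPM there (3 counts each). It was at 5.55, 0.998 and 2.28 CPM in WT naive libraries 2, 3 and 4, and at 0.445 CPM or less in all 12 libraries of the other groups. Library 2, the highest in all 9 serotonin genes, was thus also the highest in Dbh and in the noradrenaline transporter gene Slc6a2 (5.59 CPM). Library 1, which had the next highest Tph2 level, had Dbh at 0 and Slc6a2 at 0.082 CPM.

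**Figure D4:**
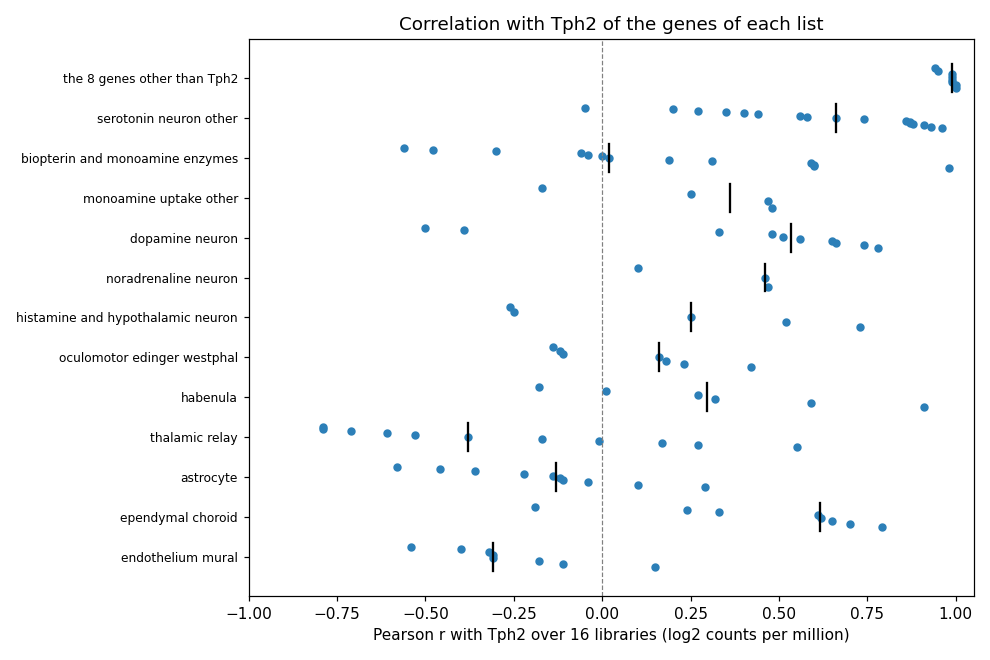
Each point is 1 tested gene, placed by its Pearson r with Tph2 over the 16 libraries on log2 CPM (horizontal axis), in rows by gene list, with a black bar at the list's median. The 8 serotonin genes other than Tph2, in the top row, sit at 0.94 to 1, and the further serotonin markers spread from -0.05 to 0.96. Thalamic relay genes spread from -0.79 to 0.55.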

How the data were processed

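What the authors deposited are raw counts of reads per Ensembl gene, as whole numbers, 1 table for each of 16 libraries. Per the labels' protocols, RNA came from TRIzol extraction and the libraries from version 2 of the TruSeq RNA kit, which keeps no strand information. TopHat, DESeq2 and build mm10 are named, without versions, per the submitters' processing notes. The annotation release and the strand option of the counting step are not stated. The 5 summary lines of each table (38.0% to 39.9% of listed reads unassigned) were left out. Symbols came from GENCODE of the same build (37607 of 38924 identifiers matched).

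Tests used edgeR 4.0.16 (R 4.3.3). The filter was filterByExpr with a minimum count of 10, which kept 18350 genes and 99.961% of counts. Scaling was by TMM, and the robust quasi-likelihood fit had a mean for each group over all 16 libraries. Two-sided p-values were adjusted over all tested genes (Benjamini-Hochberg), and a gene was called under 0.05. Adjusted p-values are edgeR's unless DESeq2 (1.42.0) is named. CPM uses TMM-scaled library sizes, and log2 CPM a prior count of 2. Correlations were tested two-sided with 100000 permutations (numpy 2.4.6). The fit was tested on simulated data. The 9 genes and the lists were chosen with earlier results of these data known. Named genes are the 9, Rgs4, the 10 most like Tph2, and from each list those called, of high level or of low p. Others, such as Foxa2, Nkx2-2, Tph1, Ccdc153, Hdc, Nwd2 and Dbh, were named after their values were seen. Replicates of a group differed by more than sampling noise (chi-square per degree of freedom 3.55 to 13.7) and were kept separate.

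Alternatives were other scalings, filters and tools, thinning to the shallowest library, fits on the 2 groups compared and leaving out each library. The fit with Tph2 as a covariate, the lines and ratios against Tph2 and the fits without libraries 5, 8 and 10 were added after seeing the data. Promoters are RefSeq windows of GRCm38.p6, 250 bases before the start.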

Additional observations from a re-analysis of the deposited data

Results flagged for a closer look

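Groups of 4 libraries were checked for a single library far from the others, by its gap to the nearest library as a share of the group's range (Dixon's 95% limit for 4 samples). Of 68 groups (9 levels and 8 ratios to Tph2 in 4 groups each), 3 passed that limit, and chance alone flags about 1 in 20. Ddc per 100 Tph2 reads in WT naive libraries had a gap share of 0.837, with library 1 at 40.2 and the others at 43.3 to 43.9. Slc18a2 per 100 Tph2 reads in WT CFA libraries had 0.886, with library 10 at 68.8 and the others at 58 to 59.2. Maob per 100 Tph2 reads in WT CFA libraries had 0.929, with library 10 at 83.9 and the others at 26.8 to 30.8. Library 10 has the lowest Tph2 level of all, 58.9 CPM.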

How the results depend on the processing

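No paired analysis was possible because the library numbers run from 1 to 16 and none is shared between groups. The counts of serotonin genes called stayed at 0 of 9 in each contrast under library totals only, RLE scaling, no filter, thinning, fits on the 2 groups compared (not possible for the interaction), DESeq2 and each of 16 left-out libraries, and none of the 981 single values for the 9 genes changed sign or was called. Tph2 ranged on the log2 scale from -1.49 to -0.77 for the KO label in naive libraries and from 0.31 to 0.87 after CFA. All 36 pairs passed the test in every setting run, with r of 0.88 or more, or 0.76 or more without libraries 5, 8 and 10. Counts over all genes moved more. DESeq2 called 456 and 453 genes for the KO label (naive, CFA), 756 and 88 for CFA (WT, labelled KO) and 89 for the interaction, where edgeR called 266, 294, 409, 34 and 12. Thinning to the shallowest library gave 179 for the KO label after CFA, 197 for CFA in WT and 4 for the interaction, and no filter gave 31 for the interaction. Leaving out 1 library gave 135 (without 6) to 296 for the KO label in naive libraries, 195 (without 16) to 407 after CFA, 178 (without 2) to 754 (without 8) for CFA in WT, 16 (without 6) to 42 for CFA in libraries labelled KO, and 5 (without 8) to 27 (without 7) for the interaction; the cause was not tested. Relative to Tph2, the count of genes called for the KO label after CFA was 0 with Slc6a3 as a further covariate and 0 to 1 without 1 library. The spread of Tph2 between libraries of a group, not counting depth, sets the width of the intervals: each library held 2887 Tph2 counts or more.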
